A study of Mus musculus with 12 samples.

Results

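The core circadian clock genes are 10 genes that drive daily rhythms of transcription in most mammalian cells, and they are described here in mouse hematopoietic stem cells (HSCs) after estradiol (E2) treatment. The members were the probe sets of the deposited array table whose only gene symbol was Arntl, Clock, Per1, Per2, Per3, Cry1, Cry2, Nr1d1, Nr1d2 or Dbp. Each gene had 1 such probe set, so 10 of 21780 probe sets with 1 symbol, or 10 of 19935 genes, make up the set. The family was chosen by a measured value, the E2 minus oil difference of Arntl, which was high in earlier results of these same arrays. The E2 values of all 10 members are therefore a description with no test, whereas differences between the sexes were tested. Genes of the clock outside the 10 were tested too, but their list was also drawn up with earlier results of these arrays known.

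The study measured total RNA of sorted HSCs on 12 arrays, with 5000 to 7000 cells to a sort. The gate took lineage- cells that were c-kit+ and Sca-1+, and of those the CD150+ and CD48- ones. The 4 groups were males given 2 µg of E2 in corn oil, males given corn oil alone, females given the same dose of E2 and females given oil alone, with 3 replicate arrays in each. Nothing in the labels says how many mice gave each sample, so p-values measure the spread between these samples, which may be technical. The injection was subcutaneous, in a volume of 100 µL, and the mice were aged 2 to 3 months with free access to food. The labels give no strain, no duration of treatment and no time of day of injection or collection, so no comparison by time of day was made.

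In the clock, the proteins BMAL1 (encoded by Arntl) and CLOCK pair and bind E-boxes, short DNA elements, to switch on the Per, Cry, Nr1d and Dbp genes. PER and CRY proteins return to block that pair. REV-ERBα and REV-ERBβ, encoded by Nr1d1 and Nr1d2, repress Arntl through ROR elements (ROREs), which ROR proteins activate, so Arntl runs out of phase with Nr1d1, Dbp and most Per genes in tissues with a running clock. In mouse bone marrow, rhythmic signals from the nervous system to the niche are known to release stem cells into the blood at certain hours.

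The sites through which these loops act are short. Those found around the transcription starts of the members are shown because some genes described below encode factors that bind such sites. Whether the values below depend on binding at these sites was not tested. RefSeq promoter windows of 300 bases (build GRCm38.p6), from 250 before to 50 after a start, were found for 9 of the 10 members, Per2 being the member without one, with 13 windows in all. Both strands were searched for the E-box CACGTG, which is its own reverse complement, for the D-box TTATGNAA, for the RORE and for the full estrogen response element. Motifs are in capitals, and each sequence runs 5′ to 3′ on the strand of the gene.
Arntl RORE, chr7:113207528-113207556, plus strand: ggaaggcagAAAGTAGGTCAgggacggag
Per1 E-box, chr11:69098771-69098800, plus strand: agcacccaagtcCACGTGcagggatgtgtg
Cry1 E-box, chr10:85185097-85185126, minus strand: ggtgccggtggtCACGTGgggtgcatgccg
Per1 D-box, chr11:69098914-69098943, plus strand: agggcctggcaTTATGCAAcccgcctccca
Per3 D-box, distal, chr4:151044852-151044881, minus strand: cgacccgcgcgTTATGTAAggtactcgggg
Per3 D-box, proximal, chr4:151044805-151044834, minus strand: cccgcccgcggTTATGTAAcccccgccgtg

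The RORE began 26 bases after the second of the annotated Arntl starts. The E-boxes began 166 bases before the first Per1 start and 60 bases before the Cry1 start. The D-boxes lay 24 bases before that Per1 start and 205 and 158 bases before the Per3 start. An E-box was present in 7.15% of all 32851 windows, a D-box in 3.38%, a RORE in 0.384% and the full estrogen response element in 0.07%. Of the 9 members with a window, 2 held an E-box, 2 a D-box, 1 a RORE and 0 the estrogen response element, counts that describe these letters in these windows and not binding. The 250 bases before that Per1 start, chr11:69098699-69098948 on the plus strand, are printed because they hold both an E-box and a D-box, in capitals.
Per1 upstream: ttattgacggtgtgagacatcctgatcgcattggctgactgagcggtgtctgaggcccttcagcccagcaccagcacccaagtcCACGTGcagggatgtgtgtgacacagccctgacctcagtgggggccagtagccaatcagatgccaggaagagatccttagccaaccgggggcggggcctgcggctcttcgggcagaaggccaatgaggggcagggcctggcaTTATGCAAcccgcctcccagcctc

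All values below are linear probe set intensities as deposited, and tests used limma on log2 of the intensity plus 1, with Benjamini-Hochberg adjustment over 9967 genes whose mean lay above the median gene, an intensity of 182. Calls used a threshold of 0.05 on the adjusted p. Xist read 3417 to 3897 on the female arrays and 61.9 to 73.0 on the male arrays, so all 12 arrays matched their sex labels. Of 8 HSC markers, 6 had a probe set, and each lay above 182 on all arrays, for example Kit at 1820 to 2756 and Procr at 550 to 923. Their summed intensity was lower with E2, at 8077 to 8182 on male E2 arrays and 9427 to 9551 on male oil arrays, and at 7104 to 7771 on female E2 arrays and 8328 to 9203 on female oil arrays. On average 3 of the 6 fell in limma's test, Procr by 0.47 (adjusted p = 0.000537), Kit by 0.32 (adjusted p = 0.0023) and Gata2 by 0.38 (adjusted p = 0.0053), where 8.9% of all genes were called. Mecom, not called, was the 1 marker of the 6 above 0. Its means were 1335 with E2 and 1217 with oil in males, and 1253 and 1145 in females. The 3 female E2 arrays differed more among themselves than the other groups did, with a median SD over genes of 0.16 on the log2 scale, against 0.11 in male oil arrays, 0.10 in female oil arrays and 0.09 in male E2 arrays.

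Arntl was the member that differed most between E2 and oil. It read 560, 388 and 529 on the male E2 arrays and 153, 180 and 191 on the male oil arrays. It read 247, 526 and 788 on the female E2 arrays and 246, 252 and 157 on the female oil arrays. All male E2 arrays lay above all male oil arrays, while female E2 replicate 1 lay within the range of the female oil arrays and the other two female E2 arrays lay above it. The group means were 493 ± 91.8 in E2-treated males, 174 ± 19.4 in oil-treated males, 521 ± 270 in E2-treated females and 218 ± 53.4 in oil-treated females (SD, n = 3 each). The male oil mean was below the filter value of 182, so Arntl passed the filter through its E2 arrays and its fold change is approximate.

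**Figure D1:**
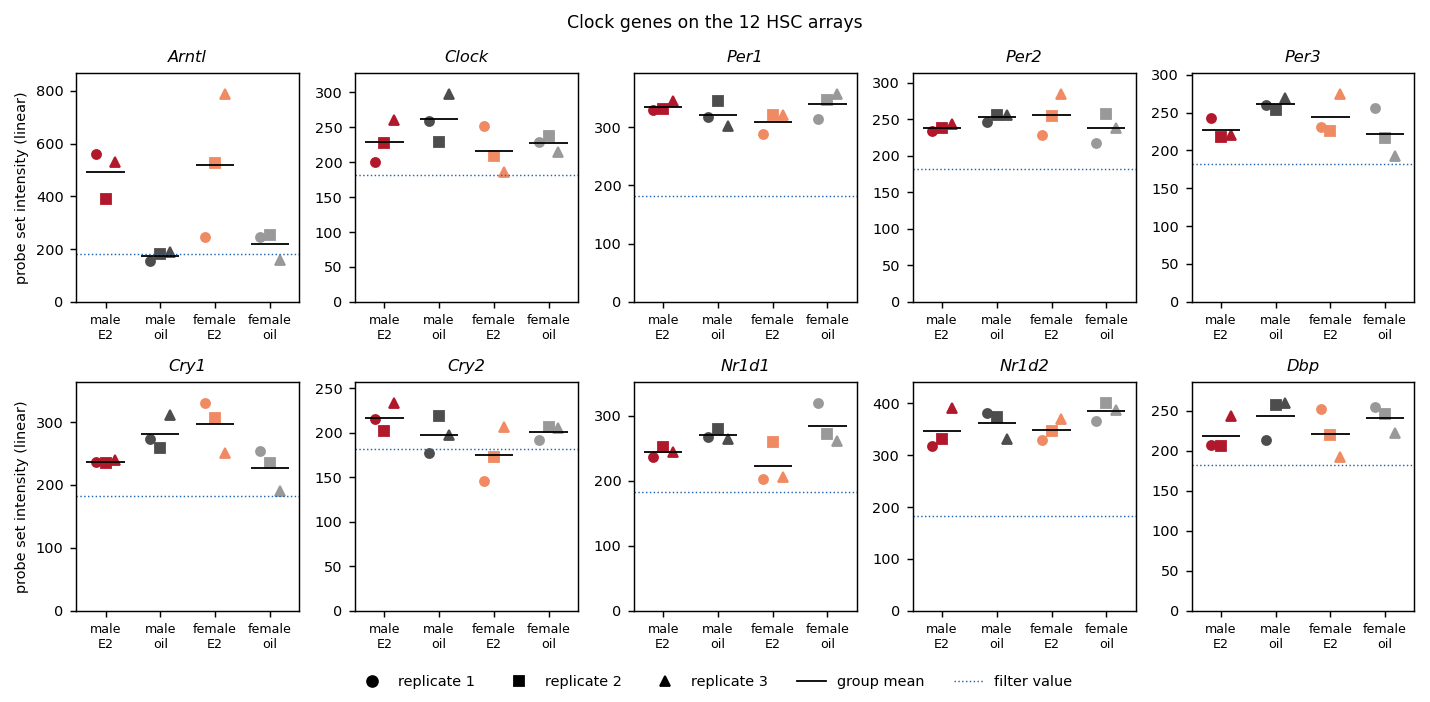
Probe set intensity (linear axes from 0) of the 10 clock genes on each of the 12 arrays, by group, with black bars for the group means and a dotted line at the filter value of 182. Arntl stands at 388 to 560 on the male E2 arrays and 153 to 191 on the male oil arrays, while the other 9 genes stay between 146 and 401 on all arrays.

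On the log2 scale the Arntl difference, E2 minus oil, was 1.48 ± 0.32 in males and 1.13 ± 0.32 in females (SE), or 2.79-fold and 2.19-fold, and 1.31 ± 0.23 averaged over the sexes. In each of these comparisons 9 of the 9967 tested genes had a larger increase. The count of members past limma's threshold was fixed in part by the choice of the family and is given only as a description: 1 of 10 (Arntl) in males, where 1.43% of all genes passed, 0 in females, where 3.56% passed, and 1 (Arntl) on average, where 8.9% passed. Over the alternatives tried the Arntl difference ranged from 1.38 to 1.64 in males, from 0.76 to 1.59 in females and from 1.12 to 1.53 on average. The highest female value was that without E2 replicate 1, and the lowest that without E2 replicate 3.

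Clock, the partner of BMAL1 on DNA, did not follow Arntl. It read 200, 228 and 260 on the male E2 arrays and 260, 229 and 298 on the male oil arrays. In females it read 252, 208 and 186 under E2 and 228, 238 and 215 under oil. Neither sex showed a clean separation of E2 from oil, and the log2 difference was -0.19 ± 0.13 in males and -0.08 ± 0.13 in females (SE).

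The Rev-erb genes, which encode the repressors of Arntl, lay on the low side with E2. Nr1d1 read 237, 252 and 243 on the male E2 arrays and 266, 280 and 263 on the male oil arrays. It read 203, 259 and 205 on the female E2 arrays and 320, 271 and 262 on the female oil arrays. Every E2 array lay below every oil array of the same sex, which 4.88% of the tested genes also showed in both sexes together. The log2 difference was -0.15 ± 0.11 in males, -0.36 ± 0.11 in females and -0.25 ± 0.08 on average (SE).

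Nr1d2, the second Rev-erb gene, read 318, 331 and 392 on the male E2 arrays and 382, 374 and 331 on the male oil arrays. It read 328, 347 and 370 on the female E2 arrays and 366, 401 and 388 on the female oil arrays. Its arrays overlapped in both sexes, with log2 differences of -0.07 ± 0.10 in males and -0.14 ± 0.10 in females (SE).

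The 3′ end of Nr1d1 overlaps that of Thra, the gene of thyroid hormone receptor alpha, on the opposite strand. Thra, not a clock gene, fell with E2 by 0.24 ± 0.06 on the log2 scale averaged over the sexes (limma, adjusted p = 0.0311), a call that ended in 10 of its alternatives, where the adjusted p reached 0.0831. Whether the Nr1d1 probe set takes up signal of Thra was not tested.

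Dbp, an activator that binds D-boxes and a classic output of BMAL1 and CLOCK, read 207, 206 and 244 on the male E2 arrays and 214, 257 and 260 on the male oil arrays. It read 252, 220 and 192 on the female E2 arrays and 255, 246 and 223 on the female oil arrays. The groups overlapped in both sexes, and the log2 difference was -0.15 ± 0.12 in males and -0.13 ± 0.12 in females (SE).

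The Per genes, the PER part of the repressing complex, stayed within narrow ranges. Per1, which also answers to glucocorticoids and acute signals, read 330, 331 and 345 on the male E2 arrays and 317, 345 and 302 on the male oil arrays. In females Per1 read 289, 320 and 320 under E2 and 315, 347 and 357 under oil, so the groups overlapped in both sexes. Per1 carries the E-box and the D-box printed above, and its averaged log2 difference was -0.03 ± 0.06 (SE), with values of 0.06 ± 0.09 in males and -0.13 ± 0.09 in females (SE). Per2 differed by -0.08 ± 0.09 in males, where its E2 arrays at 234 to 244 lay just below its oil arrays at 246 to 256. In females Per2 ran from 229 to 285 under E2 and from 218 to 257 under oil, a difference of 0.10 ± 0.09 (SE).

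Per3, with the pair of D-boxes shown above, lay lower on all male E2 arrays, at 242, 218 and 221, than on the male oil arrays, at 260, 254 and 269. The female arrays overlapped, at 231, 226 and 275 under E2 and 256, 216 and 193 under oil. Its log2 difference was -0.20 ± 0.11 in males and 0.14 ± 0.11 in females (SE).

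Cry1, whose product is the stronger repressor of BMAL1 and CLOCK of the CRY pair, pointed in opposite directions in the sexes. It read 237, 234 and 239 on the male E2 arrays and 274, 258 and 311 on the male oil arrays, with no overlap. In females it read 331, 306 and 252 under E2 and 255, 235 and 190 under oil, where only E2 replicate 3 fell within the oil range. The log2 difference was -0.24 ± 0.12 in males and 0.39 ± 0.12 in females (SE).

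Cry2, the other cryptochrome, read 215, 202 and 234 on the male E2 arrays and 177, 218 and 197 on the male oil arrays. In females it read 146, 173 and 206 under E2 and 192, 206 and 205 under oil. The groups overlapped in both sexes, the log2 differences were 0.14 ± 0.12 in males and -0.21 ± 0.12 in females (SE), and its E2 female mean of 175 lay below the filter value.

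Without regard to a test, 1 member (Arntl) lay higher on every E2 array than on every oil array in males, where 13.6% of genes did, and 4 (Per2, Per3, Cry1 and Nr1d1) lay lower, where 13% did. In females 0 members lay wholly higher, where 6.95% of genes did, and 1, Nr1d1, lay wholly lower, where 13.1% did.

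Set side by side, the positive limb held 1 gene far above 0 and 1 below it, at averaged log2 differences of 1.31 for Arntl and -0.14 for Clock. Of the 5 Per and Cry genes, 2 were above 0 and 3 below, all between -0.04 and 0.07, with a median of -0.03. Leaving out 1 array turned the sign for Per2 (-0.027 to 0.051), Per3 (-0.078 to 0.024) and Cry2 (-0.10 to 0.023), so the signs in this limb are not settled. For Cry1, Per2, Per3, Per1 and Cry2 the sexes pointed opposite ways, as given above. Both Rev-erb genes, at -0.25 and -0.10, and Dbp, at -0.14, were below 0. The median over all 9967 genes was -0.01. Array by array, the mean of Nr1d1 and Nr1d2 differed from the oil mean of the sex by -0.19 to -0.02 on the male E2 arrays and by -0.35 to -0.14 on the female E2 arrays, against -0.08 to 0.05 on the oil arrays of both sexes. The female E2 array with the smallest Arntl difference, replicate 1 at 0.21, had the lowest Rev-erb mean, -0.35, and the highest Dbp value of its group. The E2 contrasts of males and females use different arrays, while the average uses all of them.

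**Figure D2:**
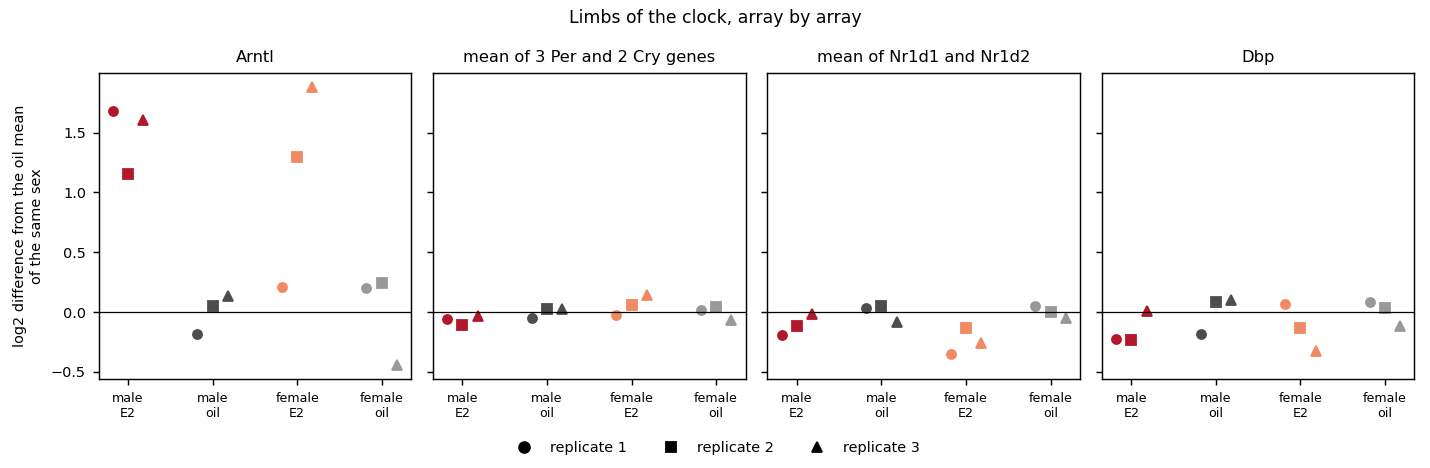
Log2 difference of each array from the oil mean of its own sex, for Arntl, for the mean of the 5 Per and Cry genes, for the mean of Nr1d1 and Nr1d2, and for Dbp. On E2 arrays Arntl lies 0.21 to 1.88 above the oil mean, the Per and Cry mean stays between -0.10 and 0.14, and the Rev-erb mean is below 0 on all 6.

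RNA was taken from a sorted population as a whole, so fewer cells of a type and less RNA per cell cannot be told apart. Markers of other cells differed between the same groups in some lists and overlapped in others. Over 3 of 6 erythroid markers the sums overlapped, at 322 to 436 with E2 and 308 to 703 with oil in males. In females they were 455 to 932 and 355 to 946. Sums of 5 stroma and endothelium markers overlapped in both sexes. In limma's test 1 of the 3 above the filter was called higher in females and 1 on average. Of all genes, 3.56% and 8.9% were called there. On average 2 of these 3 markers lay above 0 and 1 below. Col1a2 read 207 to 331 on male E2 arrays and 126 to 166 on male oil arrays. In females Col1a2 read 191 to 470 with E2 and 149 to 175 with oil. Its oil means lay below the filter value. Sums of 5 monocyte markers overlapped in males, but in females were 1945 to 2232 with E2 and 2344 to 2774 with oil. Lyz2, the brightest of them, averaged 1310 with E2 and 1902 with oil in females. There 3 of the 5 markers lay wholly higher with E2, where 6.95% of tested genes did, and 1 wholly lower, where 13.1% did. The median log2 difference of the 5 in females was 0.35, and only 2 of them were above the filter. Over 6 of 7 megakaryocyte markers with a probe set, the summed intensity was 2306 to 2658 on male E2 arrays and 3129 to 3496 on male oil arrays, and 1676 to 2454 on female E2 arrays and 3199 to 3429 on female oil arrays. Of the 5 of these above the filter, 4 fell and 1 rose on average in limma's test, where 8.9% of all genes were called. The one that rose was Gp9, at means of 796 with E2 and 531 with oil in males. In females its means were 825 and 588. Over 8 of 8 granulocyte markers the summed intensity was 6836 to 11916 on male E2 arrays, 7399 to 15108 on male oil arrays, 5095 to 13252 on female E2 arrays and 8824 to 19182 on female oil arrays. Those granulocyte sums overlapped in both sexes. Of the 7 granulocyte markers above the filter, all 7 lay below 0 on average, with a median log2 difference of -0.31. In limma's test 1 of them was called lower, where 8.9% of all genes were called. Over 6 of 6 T and NK cell markers the sum was 705 to 773 on male E2 arrays and 1025 to 1257 on male oil arrays, and 760 to 769 on female E2 arrays and 990 to 1194 on female oil arrays. The median log2 difference of the 6 was only 0.03 averaged over the sexes. Nkg7, a granule protein of cytotoxic cells, averaged 165 with E2 and 573 with oil in males, and 173 and 495 in females. Cd3e averaged 252 and 258 in males, and 268 and 266 in females. Over 4 of 5 B cell markers the sum was 522 to 643 on male E2 arrays and 646 to 902 on male oil arrays, and 497 to 553 on female E2 arrays and 682 to 727 on female oil arrays. Within the T and NK cell and B cell lists, Nkg7 fell by 1.67 (limma, adjusted p = 0.000182) and Cd79b of the B cell receptor by 0.41 (adjusted p = 0.0199). Levels over all arrays were 112 to 725 for Nkg7 and 341 to 723 for Cd79b. Both were picked after their values were seen, so these p-values are a description. Cd3e read 230 to 291, while Cd3g read at most 38.9 and Ms4a1 of B cells at most 36.3, and no marker was at 0. The part of these markers, those of HSCs included, in the clock gene values was not tested.

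Whether the E2 response of the clock genes differed between the sexes was tested as the female response minus the male response, a contrast the choice of genes did not use. By limma 0 of 10 members passed, as against 0.01% of all genes, and 2 members had an unadjusted p under 0.05, where 5.37% of all genes had one. One was Cry1, with a difference of 0.63 on the log2 scale (95% interval 0.25 to 1.01; limma, adjusted p = 0.72). The other was Per3, at 0.35 (0.01 to 0.68; limma, adjusted p = 0.929). With Cry2 the difference was -0.35 (-0.72 to 0.02, adjusted p = 0.932), and with Arntl it was -0.35 (-1.32 to 0.62, adjusted p = 0.961). The Arntl difference depended on female E2 replicate 1, without which it was 0.11 (limma, adjusted p = 0.914). For the remaining 6 members it lay between -0.21 and 0.19. The Arntl interval is wide enough to hold a response in females from well below to well above that in males.

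**Figure D3:**
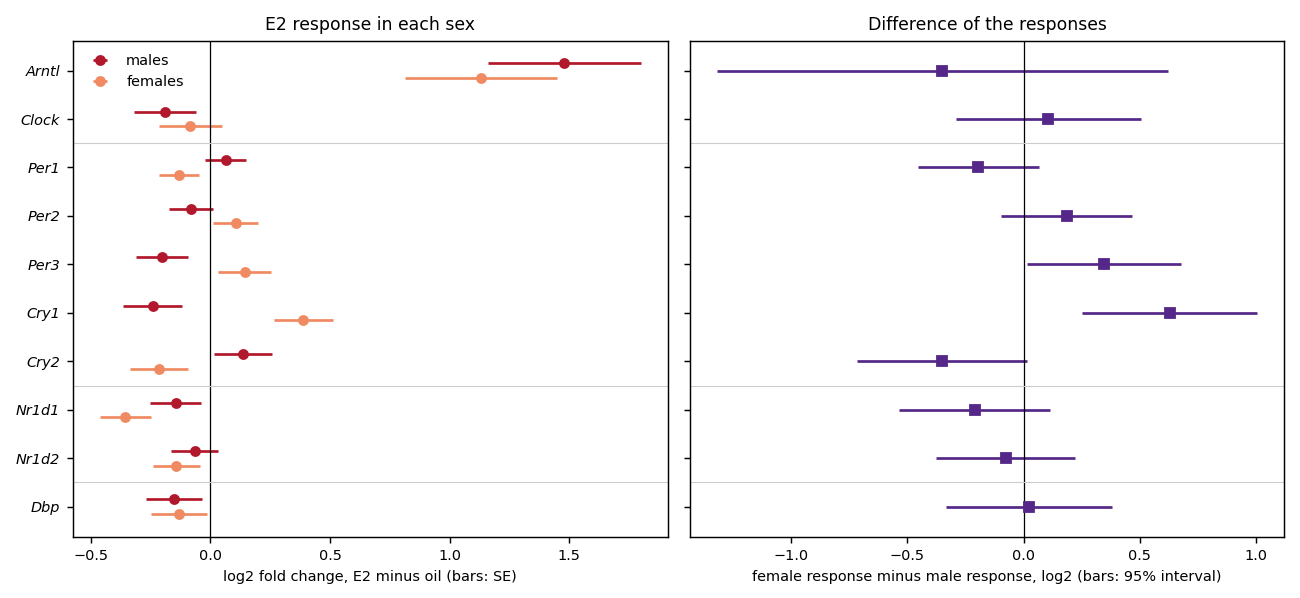
Left, log2 fold change of E2 over oil for each clock gene in males and in females, with bars of 1 SE. Right, the female response minus the male response with 95% intervals, which exclude 0 for Cry1 (0.25 to 1.01) and Per3 (0.01 to 0.68) before adjustment over all genes.

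The levels of the sexes were compared under each treatment. Under oil, 0 of 10 members passed in limma's test of females minus males, as against 0.0401% of all genes, and 2 had an unadjusted p under 0.05, as against 4.99%. Cry1 was at 226 ± 33.1 in oil-treated females and 281 ± 27.0 in oil-treated males (SD, n = 3 each), a log2 difference of -0.32 (limma, adjusted p = 0.919), with all oil-treated females below all oil-treated males, as in 7.29% of genes. Per3 differed by -0.25 there (limma, adjusted p = 0.982). Under E2, 0 of 10 passed, as against 0.01% of genes, and 2 had an unadjusted p under 0.05, as against 9.04%. Cry1 was at 296 ± 40.6 in E2-treated females and 237 ± 2.37 in E2-treated males, a log2 difference of 0.31 (limma, adjusted p = 0.483), with all E2-treated females above all E2-treated males, as in 4.1% of genes. Per1 was the other member without overlap under E2, lower in females, as were 8.72% of genes. Cry2 differed by -0.32 under E2 (limma, adjusted p = 0.469). These Cry1 values come from the same arrays as its responses and are not separate evidence. Arntl differed between females and males by 0.30 under oil (95% interval -0.39 to 0.98) and by -0.06 under E2 (-0.74 to 0.63).

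The other genes of the clock were taken from a list of 23, of which 20 had a probe set with 1 symbol and 12 passed the filter. That list was drawn up with earlier results of these arrays known, so its E2 p-values and counts are not independent evidence. Averaged over the sexes, 0 of these 12 rose, 1 fell and 11 did not pass in limma's test, where 8.9% of all genes were called, and their median log2 difference was -0.10 against -0.01 for all genes. The one that fell was Csnk1e, casein kinase 1 epsilon, which phosphorylates PER proteins and marks them for destruction. Csnk1e read 516, 580 and 551 on the male E2 arrays and 805, 821 and 799 on the male oil arrays. It read 592, 469 and 536 on the female E2 arrays and 700, 768 and 776 on the female oil arrays, so every E2 array lay below every oil array of its sex.

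Csnk1e fell by 0.53 ± 0.07 on the log2 scale on average (SE; limma, adjusted p = 0.000384), by 0.56 ± 0.09 in males (adjusted p = 0.00831) and by 0.50 ± 0.09 in females (adjusted p = 0.0133). The female call ended without female oil replicate 2 (-0.48, limma, adjusted p = 0.0632), without female oil replicate 3 (-0.47, adjusted p = 0.0615) and in a fit of the female arrays alone (adjusted p = 0.107).

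Of the activators, Rora, which switches Arntl on through the RORE, read 193, 173 and 185 on the male E2 arrays and 234, 234 and 212 on the male oil arrays, but its female arrays overlapped, at 157 to 207 under E2 and 174 to 216 under oil. Its averaged log2 difference was -0.18 ± 0.08 (SE; limma, adjusted p = 0.178). The D-box activator Tef averaged 172 ± 24.8 in E2-treated males and 201 ± 10.8 in oil-treated males, and 173 ± 11.3 in E2-treated females and 198 ± 23.3 in oil-treated females (SD, n = 3 each), a difference of -0.21 ± 0.08 (SE; limma, adjusted p = 0.127). Hlf, a relative of Tef and Dbp that is also an HSC transcription factor, read 2399 to 3184 on E2 arrays and 2706 to 2880 on oil arrays, with a difference of -0.01 ± 0.07 (SE; limma, adjusted p = 0.97).

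A pair of clock repressors below the filter differed between E2 and oil by more than 1 on the log2 scale. Bhlhe40 encodes DEC1, which competes with BMAL1 and CLOCK at E-boxes. Bhlhe40 read 371, 171 and 264 on the male E2 arrays and 96.5, 118 and 89.5 on the male oil arrays. It read 222, 263 and 372 on the female E2 arrays and 93.2, 97.2 and 127 on the female oil arrays. Nfil3 encodes E4BP4, which represses at D-boxes and opposes DBP there. Nfil3 read 183, 177 and 192 on the male E2 arrays and 73.3, 75.4 and 139 on the male oil arrays. It read 261, 434 and 271 on the female E2 arrays and 137, 113 and 107 on the female oil arrays. For both genes every E2 array lay above every oil array of the same sex, female E2 replicate 1 included, as in 1.5% of all 19935 genes.

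These 2 genes missed the filter because their oil levels lay near 100, so they were tested in the fit with no filter, over 19935 genes. There Bhlhe40 rose by 1.37 ± 0.18 on the log2 scale on average (SE; limma, adjusted p = 0.00112) and Nfil3 by 1.20 ± 0.16 (adjusted p = 0.00181), and together with Csnk1e they made 3 of 20 clock genes called, where 2.85% of all genes were called. In males, where 0.401% of genes were called, Bhlhe40 rose by 1.34 (limma, adjusted p = 0.0357), while Nfil3 was at 1.00 (adjusted p = 0.108). In females, where 0.918% were called, Bhlhe40 rose by 1.40 (limma, adjusted p = 0.022) and Nfil3 by 1.40 (adjusted p = 0.0153). The averaged calls held without any 1 array, with adjusted p of up to 0.00508 for Bhlhe40 and 0.00754 for Nfil3. The male Bhlhe40 call did not pass in 9 of 18 alternatives and the female one in 6 of 18, with adjusted p of up to 0.156 and 0.0957 in limma's fits. In males these were the replicate block and leaving out E2-treated male 1 or 3, any 1 oil-treated male, E2-treated female 2, or oil-treated female 1 or 2. In females they were array weights and leaving out E2-treated female 2 or 3 or any 1 oil-treated female. The female Nfil3 call ended without oil-treated female 2 (limma, adjusted p = 0.0711) or 3 (adjusted p = 0.0811), and in males Nfil3 passed with array weights (adjusted p = 0.037) and without oil-treated male 3 (adjusted p = 0.0252). Oil levels near background make both fold changes approximate.

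**Figure D4:**
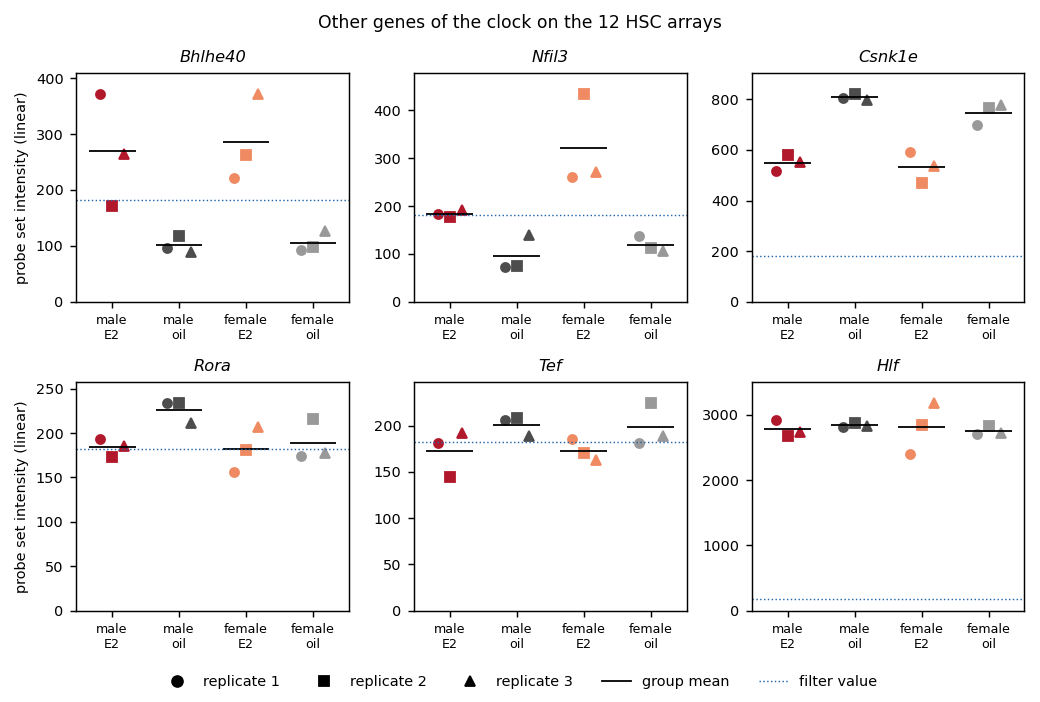
Probe set intensity (linear axes from 0) of 6 further clock genes by group, with black bars for group means and a dotted line at the filter value of 182. Bhlhe40 and Nfil3 stand higher on every E2 array than on the oil arrays of the same sex, Csnk1e stands lower, and Rora, Tef and Hlf did not pass on average.

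The members whose windows hold an E-box, the element of DEC1, were Per1 and Cry1, and those with a D-box, the element of E4BP4, were Per1 and Per3. Binding was not measured.

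Since Per1 also answers to glucocorticoids, 7 genes known to be induced by these hormones were set beside it. On average 1 rose, 2 fell and 4 did not pass in limma's test, where 8.9% of all genes were called, with a list median of -0.01. Sgk1, a kinase, rose by 0.90 (limma, adjusted p = 0.0189, and 0.0527 without male E2 replicate 3). Its means were 281 with E2 and 144 with oil in males, and 270 and 150 in females. Both oil means lay below the filter value of 182. Sgk1 thus passed the filter through its E2 arrays, and its p-value is only a description. The transcription factor Klf9 fell by 0.34 (limma, adjusted p = 0.00694), and Dusp1, a MAP kinase phosphatase, fell by 0.85 (adjusted p = 0.024). The Dusp1 call ended in 7 alternatives, with no filter or on leaving out 1 array (replicate 1 or 3 of the E2-treated males, 1 or 2 of the oil-treated males, 2 or 3 of the oil-treated females), where its adjusted p in limma's fits was 0.0507 to 0.0628. The called genes of this list thus differed in direction.

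The genes whose log2 values followed Arntl most closely over the 12 arrays were Adgre5, Anxa6, Thbs1, Trpc6 and Ern1, with Pearson coefficients of 0.966 to 0.973. Adgre5 is an adhesion receptor of leukocytes, Anxa6 an annexin, Thbs1 a matrix glycoprotein, Trpc6 a calcium channel and Ern1 the stress sensor IRE1α. Those that ran most nearly opposite were Cd72, Galnt6, Slco3a1, Actn1 and Foxp4, at -0.965 to -0.930. These figures describe 12 arrays of which 6 share the E2 treatment, and so also reflect that difference. Among the other members the coefficient with Arntl lay between -0.57 for Clock and 0.31 for Per2, with Nr1d1 at -0.51. For deviations from the group means, which leave out the E2 difference, it lay between -0.45 for Clock and 0.77 for Cry2. There Per2 was at 0.68, Per3 at 0.63, Per1 and Nr1d2 at 0.28 and Nr1d1 at 0.23. Cry1 was at -0.20 and Dbp at -0.28.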

How the data were processed

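The members and gene lists were chosen with earlier results of these data known. Values are linear probe set intensity values deposited by the authors for 35474 probe sets on 12 arrays, after NuGEN Ovation Pico WTA V2 amplification and Encore Biotin labelling per the labels' protocols. For the summarisation, background correction and normalization, the method is not given in the sources used here. Symbols came from the platform annotation: 21780 probe sets had 1 symbol, 1605 several and 12089 none. Where a gene had several, the one of highest mean was used. Values were log2 of intensity plus 1, and genes with a mean above the median gene (log2 of 7.52) were kept. limma 3.58.1 in R 4.3.3 fitted 1 mean per group to all arrays (8 residual, 5.38 prior degrees of freedom), with eBayes and Benjamini-Hochberg adjustment within each contrast. Intervals are limma's 95% intervals. The number of arrays limits the precision. The fit was tested on simulated data. Alternatives were an offset of 16, averaged probe sets, no filter, a 25th percentile filter, median centring, quantile normalization, trended robust eBayes, array weights, compared groups alone, a replicate block and each array left out. For Bhlhe40 and Nfil3, alternatives with no filter were added after seeing the data. Named genes were the 10 members, the other clock genes called, and Rora, Nfil3, Tef, Hlf and Bhlhe40, listed with earlier results known. Called glucocorticoid-induced genes, Thra, and the 5 genes most and least correlated with Arntl were named too. The cell markers named with values were chosen after their values were seen. Figures used Python 3.11.15 and matplotlib 3.10.9.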

Additional observations from a re-analysis of the deposited data

How the results depend on the processing

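The counts of members past the threshold for E2 describe genes chosen by an E2 value and are no test. In males the count was 1 with all arrays, but 0 with no filter, with trended robust eBayes and with the replicate block, and 0 to 1 with an array left out. In females it was 0, but 1 with array weights and 0 to 1 with an array left out. On average it was 1, and 1 to 2 with an array left out. For the response difference and both sex differences it was 0 in all alternatives tried. Among the other clock genes 1 was called on average, but 3 with the filter dropped or set at the 25th percentile (Bhlhe40, Csnk1e and Nfil3), and 1 to 2 with an array left out. Deviations of same-numbered E2 and oil arrays correlated at -0.18 to 0.20, and those of different-numbered ones at -0.33 to 0.21. With 3 arrays a group, these values cannot tell whether replicate numbers pair the arrays. The replicate block changed no other of these counts.

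Small differences that were not called changed sign, and the cause was not tested. For the female response minus the male response, Dbp was at 0.022, but -0.016 with quantile normalization, -0.065 with median centring and -0.023 with array weights. With an array left out that difference was -0.076 to 0.12 for Dbp, -0.73 to 0.11 for Arntl, -0.012 to 0.21 for Clock and -0.14 to 0.014 for Nr1d2. For females minus males under oil, Dbp was at -0.011, but 0.020 with quantile normalization and 0.032 with median centring. With an array left out it was -0.10 to 0.046 for Dbp, -0.045 to 0.11 for Cry2 and -0.018 to 0.13 for Nr1d1. For females minus males under E2, median centring gave -0.033 for Dbp and -0.033 for Nr1d2, each at 0.011 with no centring, and array weights gave -0.034 for Dbp and 0.14 for Arntl. With an array left out it was -0.087 to 0.11 for Dbp, -0.049 to 0.10 for Nr1d2, -0.43 to 0.40 for Arntl and -0.21 to 0.0066 for Clock. For E2 minus oil in females, Clock was at -0.20 to 0.016 with an array left out, and the averaged signs of Per2, Per3 and Cry2 turned as well. Rora in females, E2 minus oil, was at -0.16 to 0.039 with an array left out. With 3 arrays a group, differences of this size were not resolved.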
